A study of Mus musculus with 8 samples.

Results

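Acetylcholine receptors of sympathetic neurons were described through 8 genes measured in single neurons of the mouse stellate ganglion: the nicotinic subunits Chrna3, Chrna4, Chrna5, Chrna7, Chrnb2 and Chrnb4 and the muscarinic receptors Chrm1 and Chrm2. They were chosen by name from the 19224 genes of the series, and all 8 had at least 1 molecule (a unique molecular identifier, UMI) in the 1303 neurons. All animals were adult male C57BL/6J mice of 8 to 10 weeks and of 1 condition, with AAV-GFP injected into the heart and AAV-tdTomato into the front paws. The study grouped the neurons into 5 noradrenergic subtypes (NA1a, NA1b, NA1c, NA2 and NA3), Ach1, Ach2 and Glut, and those names are used here. Subtypes were compared within 5 mice (replicates 1 to 5, 1002 neurons), and the other 301 neurons carry mouse names that match no single sample. Replicates 1 to 5 all belong to batch 2 of the study, and its other samples to another batch. The protocol has 16 left and right ganglia combined before digestion, so whether each library held the cells of 1 mouse alone was not tested.

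Preganglionic axons release acetylcholine onto these neurons, and fast transmission in sympathetic ganglia runs through pentameric nicotinic channels. The common ganglionic channel is built from α3 (Chrna3) and β4 (Chrnb4), with α5 (Chrna5) and β2 (Chrnb2) as accessory subunits, while α7 (Chrna7) forms a homomeric, calcium-permeable channel and α4 (Chrna4) pairs with β2 mainly in the brain. The M1 receptor (Chrm1) couples to Gq and closes the Kcnq potassium channels that carry the M-current, which gives a slow excitation. The M2 receptor (Chrm2) couples to Gi and Go and damps firing and transmitter release.

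The 3 ganglionic subunits lie next to each other on mouse chromosome 9 (GRCm38). Chrna5 occupies chr9:54980880-55007779 on the plus strand, Chrna3 chr9:55010111-55026562 and Chrnb4 chr9:55028154-55048779 on the minus strand. The cluster spans 67900 bases and holds these 3 protein-coding genes, with gaps of 2331 bases between Chrna5 and Chrna3 and 1591 bases between Chrna3 and Chrnb4. Chrna4 lies at chr2:181018380-181043546, Chrnb2 at chr3:89746195-89764632, Chrm2 at chr6:36388084-36528414, Chrna7 at chr7:63098692-63212569 and Chrm1 at chr19:8663789-8683587. Chrnb2 overlaps Adar, so reads in the overlap could be split between the genes.

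The starts of the clustered genes are shown because neighbouring subunits are compared below. Each line holds 250 bases before and 50 after a transcription start, 5′ to 3′ on the gene's strand, from RefSeq (GRCm38.p6). Capitals mark the GC box GGGCGG, searched on both strands, and the E-box CAGCTG, which reads the same on both strands. The windows are chr9:54981238-54981537 (Chrna5, plus strand, the second of its starts), chr9:55026513-55026812 (Chrna3, minus strand) and chr9:55048495-55048794 (Chrnb4, minus strand).
Chrna5: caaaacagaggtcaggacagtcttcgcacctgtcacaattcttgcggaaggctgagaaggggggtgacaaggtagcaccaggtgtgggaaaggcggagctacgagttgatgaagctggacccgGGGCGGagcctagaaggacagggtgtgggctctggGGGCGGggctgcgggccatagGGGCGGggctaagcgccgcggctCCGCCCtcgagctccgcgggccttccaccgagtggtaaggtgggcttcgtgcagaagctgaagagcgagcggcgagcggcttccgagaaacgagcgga
Chrna3: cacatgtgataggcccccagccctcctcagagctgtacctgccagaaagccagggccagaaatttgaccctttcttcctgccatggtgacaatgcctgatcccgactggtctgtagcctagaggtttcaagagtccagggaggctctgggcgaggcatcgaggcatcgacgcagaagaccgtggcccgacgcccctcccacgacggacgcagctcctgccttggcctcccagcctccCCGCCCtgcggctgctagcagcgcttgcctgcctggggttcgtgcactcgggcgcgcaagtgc
Chrnb4: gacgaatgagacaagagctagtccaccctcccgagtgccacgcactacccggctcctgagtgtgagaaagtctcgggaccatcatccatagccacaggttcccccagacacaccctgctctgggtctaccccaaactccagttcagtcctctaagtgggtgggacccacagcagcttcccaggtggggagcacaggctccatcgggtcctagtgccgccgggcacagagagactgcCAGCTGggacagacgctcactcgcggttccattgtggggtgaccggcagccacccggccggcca
The Chrna5 window held 4 GC boxes, and that of its first start (chr9:54980630-54980929, not shown) held 0. The Chrna3 window held 1 GC box, and that of Chrnb4 held none and 1 CAGCTG. The TATA box TATAAA, searched on both strands, was not found in the 3 windows. Of all 32851 mouse promoter windows of this length, 35.7% held a GC box, 16.3% CAGCTG and 13.6% TATAAA. Promoters of 7 of the 8 genes were matched, and Chrm1 is named only.

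Replicates 1 to 5 held 165 to 235 neurons and 916296 to 1196621 UMIs each, with a median of 2722 to 4854 UMIs per neuron. Depth differed between subtypes: the median neuron held 8181.5 UMIs in NA1a, 6643.5 in NA3, 2341.5 in NA2 and 2162 in Ach1. Levels are therefore given as mean UMIs per 10000 UMIs of a neuron. They are set side by side only for 1 gene at a time, since capture differs between genes. The deposited cells are neurons only, so the level of free RNA in cells that should lack these genes is unknown. Chat, which makes acetylcholine, was at 1.10 ± 0.292 UMIs per 10000 (SD, n = 2 mice) in Ach2 and at 0 in the Ach1 profile, where Th and Dbh of noradrenaline synthesis stood at 7.19 and 16.4.

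Libraries shared cell barcodes. Of the neurons of replicates 1 to 5, 73 carried 1 of 21 barcodes that occurred in more than 1 library, 3 of them in all 5 libraries. They made up 36.7% of NA2 neurons (55), 32.6% of Ach2 neurons (15) and 17.6% of Glut neurons (3), and 0 neurons of the other subtypes. Many differences that involve NA2 and Ach2 are therefore given also without these neurons, which was chosen after seeing the data. Those given in 1 form only include these neurons.

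Chrna3 was found in most neurons at greater depth. At least 1 UMI was counted in 724 of 1303 neurons (55.6%, 95% exact binomial interval 52.8 to 58.3%, 1689 UMIs), and among the 1002 neurons of replicates 1 to 5 the share rose with depth, from 39.2% of neurons under 2000 UMIs to 84.6% of those with 10000 to 20000. Over the mice the share was 54.6 ± 4.34% (SD, n = 5), and 32.1 ± 3.50% once neurons were thinned to 2000 UMIs. The mean level over all neurons of a mouse was 2.29, 2.05, 2.38, 2.41 and 2.37 UMIs per 10000 in replicates 1 to 5. It varied little between mice, at 2.301 ± 0.144.

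**Figure D1:**
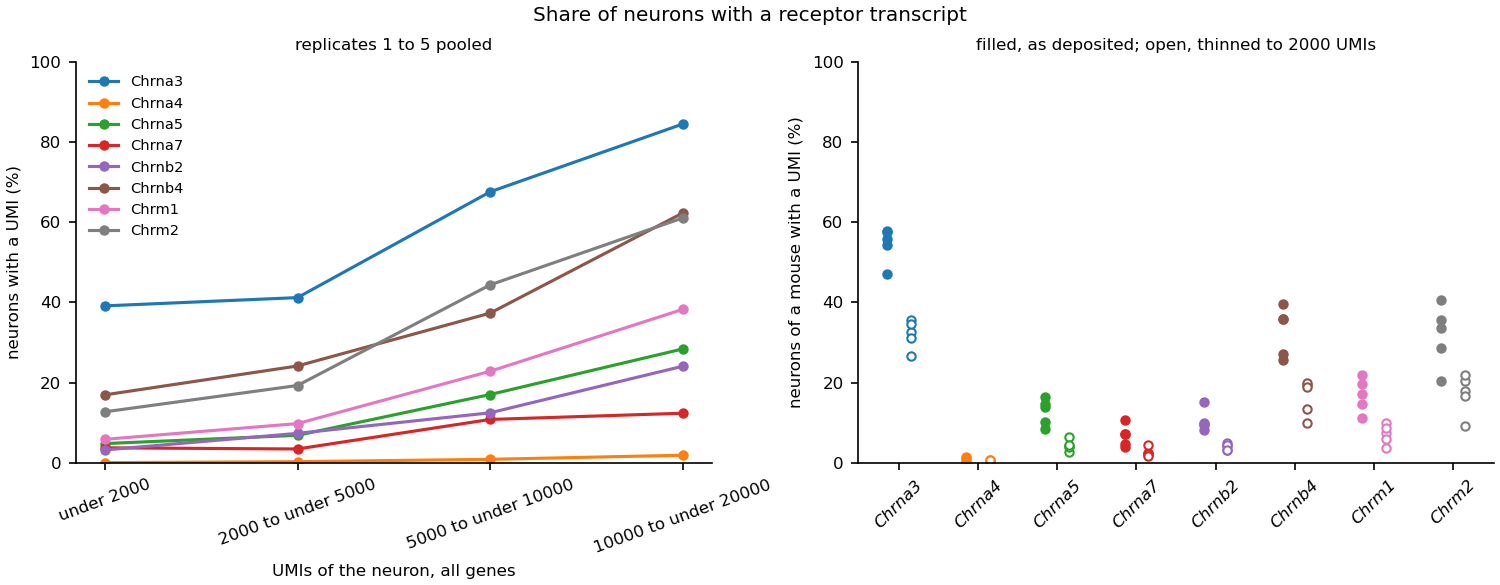
Left, share of neurons with at least 1 UMI of each receptor gene (y, percent) by the total UMIs of the neuron (x), replicates 1 to 5 pooled; right, the share in each of 5 mice (points), filled as deposited and open after thinning to 2000 UMIs. Chrna3 rises from 39.2% to 84.6% from the lowest to the highest bin and Chrna7 from 3.70% to 12.3%, with 3.41% in the bin between 2000 and 5000 UMIs, and the mean shares are lower after thinning.

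The other 2 clustered subunits were found less often. Chrnb4 had a UMI in 402 neurons (30.9%) and Chrna5 in 159 (12.2%), and at matched depth their shares were 16.3 ± 4.50% and 4.34 ± 1.37% of neurons. Over all neurons of a mouse Chrnb4 stood at 1.05, 0.908, 0.931, 0.849 and 0.913 UMIs per 10000 in replicates 1 to 5, a mean of 0.9297 ± 0.0728. Chrna5 stood at 0.261 ± 0.0799, with replicate 1 highest at 0.377 and replicate 2 lowest at 0.184.

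Chrna3 differed among the subtypes (limma F test over 6 subtypes, adjusted p = 0.00158), the 1 of 6 tested members called in this fit. Of all 7229 genes tested, 62.3% passed that test. The calls moved with the setting: Chrna3 lost its call without replicate 4 (adjusted p = 0.0710) and with at least 20 neurons per profile (0.152), while Chrm2 gained one in 4 settings (adjusted p from 0.000656 to 0.0440), Chrm1 in 3 (0.0218 to 0.0376) and Chrnb4 in 1 (0.0116). Chrna4 and Chrna7, at means of 0.00694 and 0.155 UMIs per 10000 over the 25 profiles, fell under the filter of 0.2 and were not in the fit.

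Among the noradrenergic subtypes, NA3 held the lowest mean Chrna3 level. The level was 1.12, 0.535 and 1.37 UMIs per 10000 in NA3 of replicates 2, 4 and 5, a mean of 1.01 ± 0.429. With profiles of at least 5 neurons allowed, replicates 1 and 3 stood at 1.63 and 1.01. In the same order of replicates 1 to 5 it was 2.32, 1.22, 1.74, 2.68 and 3.52 in NA1a and 3.84, 2.65, 1.93, 1.99 and 2.53 in NA1b. The lowest NA1a profile, of replicate 2, lay between the NA3 values, and no NA1b profile did. NA1c profiles ran 1.93, 1.89, 2.98, 1.63 and 2.04 and NA2 profiles 1.58, 2.79, 3.31, 2.98 and 3.97, all above the values of the 3 tested NA3 profiles. The log2 difference of NA3 from the mean of NA1a, NA1b, NA1c and NA2 was -1.26 (SE 0.266, 95% interval -1.80 to -0.726, limma adjusted p = 0.000429), a 2.40-fold lower level. The level was lower in 3 of 3 mice, where the exact sign-flip test cannot go below its value here of p = 0.25. In this comparison 15.2% of all genes were called (8.58% of all genes as lower and 6.60% as higher), against 1 of 6 members.

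The Chrna3 call in NA3 rested on few profiles. Without replicate 4, whose NA3 profile held 14 neurons, the difference was -0.92 (adjusted p = 0.0708), and with profiles of at least 20 neurons only it was -0.81 (adjusted p = 0.0900). With at least 5 neurons per profile it was -1.07 (adjusted p = 0.0463), beside -1.25 (adjusted p = 0.0124) for Ach2 from the same mean. Without the shared barcodes the NA3 difference was -1.25 (adjusted p = 0.000819).

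Glial and neuronal genes also differed between NA3 and the other noradrenergic subtypes, and their part in the Chrna3 difference was not tested. The summed level of 10 satellite glia markers was 187 to 346 UMIs per 10000 in NA3 and 3.34 to 24.9 in the 4 other noradrenergic subtypes, with all 10 genes detected in each NA3 profile. Within NA3 the lowest glia sum, 187, was that of replicate 4, which also held the lowest Chrna3 level. The 8 Schwann cell markers summed to 12.7 to 18.2 against 1.94 to 3.98, and the 6 fibroblast markers to 11.7 to 31.3 against 0.522 to 3.29. In the other direction, the 8 neuron markers (Dbh, Th, Snap25, Syt1, Pcsk1n, Prph, Slc18a2 and Slc6a2) summed to 56.8 to 69.0 in NA3 against 115 to 153, and each of the 8 was called lower. Relative to these neuron markers Chrna3 stood at 19.8, 7.76 and 21.3 UMIs per 1000 in NA3 of replicates 2, 4 and 5. The other noradrenergic subtypes stood between 16.5 ± 2.84 in NA1c and 21.7 ± 6.84 in NA2. The log2 ratio in NA3 minus their mean was -0.34 ± 0.717, lower in 2 of 3 mice (exact sign-flip p = 0.75, where 3 mice cannot go below 0.25), and it was 0.06 without replicate 4 and -0.63 without replicate 2.

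**Figure D2:**
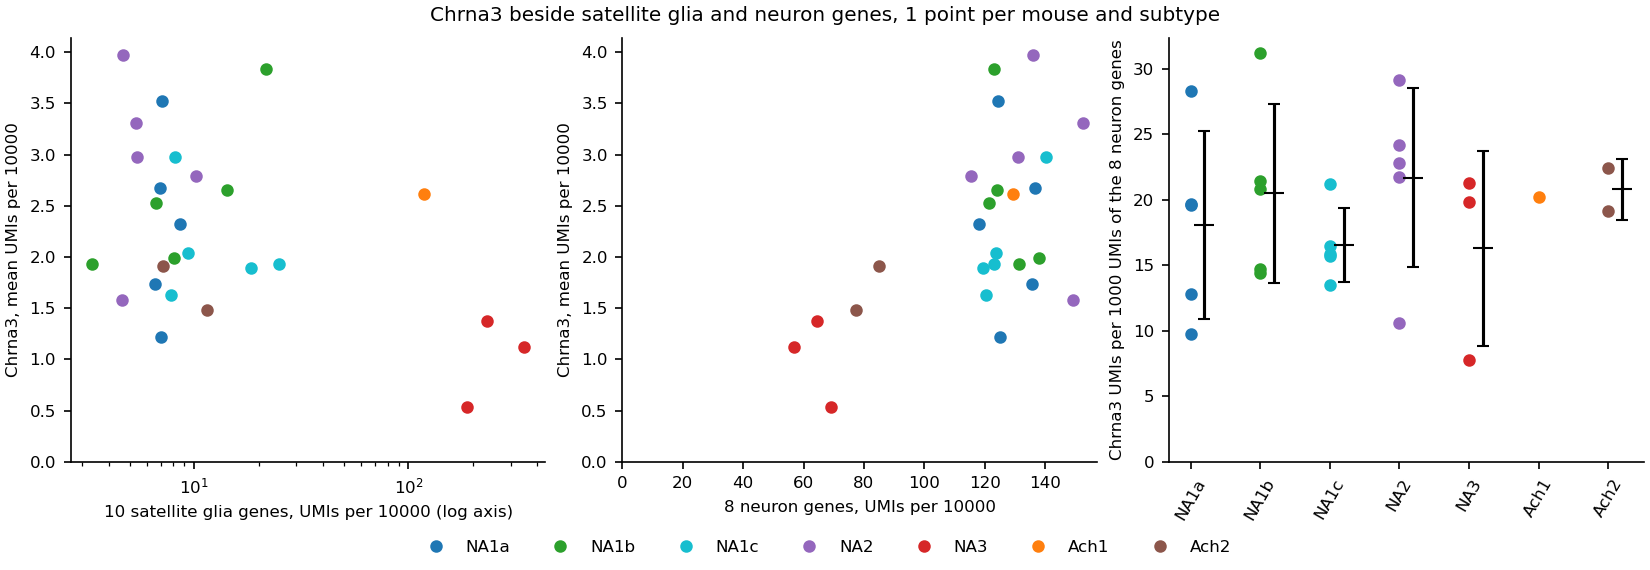
Chrna3 level (y, mean UMIs per 10000) of each mouse and subtype profile (points, coloured by subtype) against 10 satellite glia genes (left, log axis) and 8 neuron genes (middle), and Chrna3 per 1000 UMIs of the neuron genes (right, bars mean and SD). The 3 NA3 profiles lie at 187 to 346 UMIs per 10000 of glia genes and 56.8 to 69.0 of neuron genes, and at right they overlap the other subtypes.

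Among NA1a, NA1b, NA1c and NA2, 0 of 6 members were called in each of the 6 pairs. Of all genes, the NA1a and NA1b pair called 3.21%, NA1a with NA1c 4.34% and NA1b with NA1c 1.29%, while NA2 gave 43.5% with NA1a, 50.9% with NA1b and 54.8% with NA1c. Mean Chrna3 ran from 2.93 ± 0.878 in NA2 through 2.59 ± 0.769 in NA1b and 2.296 ± 0.882 in NA1a to 2.09 ± 0.518 in NA1c, and no neighbours in this order passed the test. The interval of the log2 difference between NA1c and NA2 was -0.96 to 0.09, and that between NA1a and NA1b -0.73 to 0.32. Against NA2 the median of all genes was 0.26 to 0.30 higher on the log2 scale. With each profile centred on its median gene, Chrna3 was lower in NA1a than in NA2 (-0.66, adjusted p = 0.0386) and in NA1c than in NA2 (-0.77, adjusted p = 0.0118). Without shared barcodes Chrna3 in NA2 averaged 3.06 ± 0.838 over 4 mice, and 0 members were called in the 3 pairs with NA2.

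**Figure D3:**
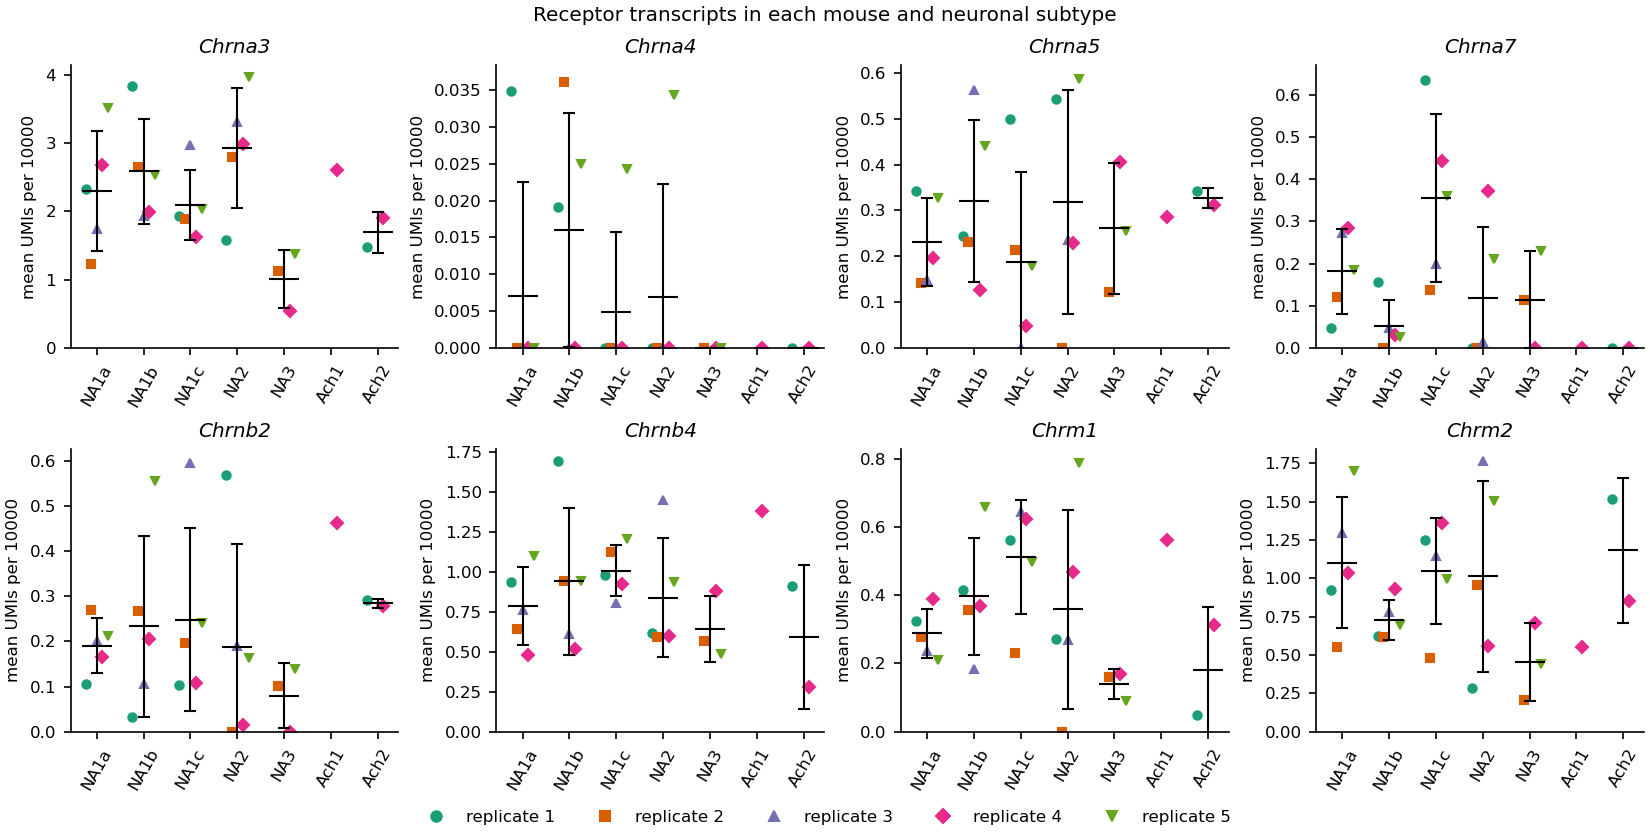
Mean UMIs per 10000 (y, one scale per gene) of the 8 receptor genes in each subtype (x), 1 point per mouse with at least 10 neurons of that subtype, bars the mean and SD. NA3 holds the lowest mean of Chrna3 among the noradrenergic subtypes at 1.01 ± 0.429, and also the lowest means of Chrnb4, Chrnb2, Chrm1 and Chrm2. The NA3 profiles of Chrnb4 and Chrna5 lie within the range of the other noradrenergic subtypes.

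Chrnb4 gave no call in NA3. Its level was 0.570, 0.880 and 0.485 UMIs per 10000 in NA3 of replicates 2, 4 and 5, inside the range of the other subtypes. The mean of these values was still the lowest among the noradrenergic subtypes. The NA1a mean was 0.786 ± 0.243, that of NA1b 0.942 ± 0.462, that of NA1c 1.01 ± 0.159 and that of NA2 0.840 ± 0.372 (0.706 ± 0.462 without shared barcodes). The log2 difference of NA3 from their mean was -0.28 (SE 0.319, 95% interval -0.92 to 0.36, adjusted p = 0.619). The difference between Chrna3 and Chrnb4 in this respect was not tested. Between NA1a and NA1c Chrnb4 was lower in NA1a in 5 of 5 mice (log2 difference -0.36, exact p = 0.0625, the smallest p that 5 mice allow, and limma adjusted p = 0.611).

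Chrna5 was sparse and varied between mice. Among the noradrenergic subtypes means ran from 0.188 ± 0.196 UMIs per 10000 in NA1c to 0.321 ± 0.176 in NA1b, and NA3 stood at 0.261 ± 0.142. In NA1c the mouse values were 0.50, 0.215, 0, 0.0478 and 0.179, a wider range than that of the subtype means. NA2 averaged 0.319 ± 0.244, or 0.243 ± 0.289 without shared barcodes, which turned the log2 difference of NA1a from NA2 from -0.11 to 0.29. The difference of NA1c from NA2 was -0.53 (adjusted p = 0.2999) and passed the threshold without replicate 2 (-1.07, adjusted p = 0.0476) and thinned to 2000 UMIs (-1.70, adjusted p = 0.0444), but was -0.13 without shared barcodes. The log2 difference of NA3 from the 4 other subtypes was 0.21 (95% interval -0.68 to 1.09, adjusted p = 0.813).

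Chrnb2 was sparse, and it gave no call in any comparison of subtypes. Between the Npy strata described below it fell under the filter and was not tested. It had a UMI in 124 neurons (9.52%), or 4.02 ± 0.740% of neurons at matched depth, and over all neurons of a mouse it was at 0.171, 0.206, 0.214, 0.219 and 0.277 UMIs per 10000. NA1a averaged 0.191 ± 0.0604, NA1b 0.233 ± 0.201, NA1c 0.248 ± 0.202, NA2 0.187 ± 0.229 and NA3 0.0800 ± 0.0718. Without shared barcodes NA2 averaged 0.280 ± 0.265, and the log2 difference of NA1a from NA2 turned from 0.34 to -0.19, that of NA1b from 0.35 to -0.17 and that of NA1c from 0.47 to -0.06. The difference of NA3 was -0.68 on the log2 scale (95% interval -1.58 to 0.22, adjusted p = 0.350). The α4 subunit Chrna4, its partner in the brain, had a UMI in 12 neurons (0.921%), 14 UMIs in all, and was at 0 in NA3, Ach1 and Ach2 profiles.

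Chrna7 was sparse. It had 82 UMIs in 70 of 1303 neurons (5.37%), namely 27 of 316 NA1a neurons (8.54%), 24 of 239 NA1c (10.0%), 8 of 99 NA3 (8.08%), 7 of 175 NA2 (4.00%) and 4 of 311 NA1b (1.29%), subtypes that differ in depth. In NA1c the mice stood at 0.636, 0.136, 0.199, 0.442 and 0.361 UMIs per 10000, in NA1a at 0.0465, 0.121, 0.271, 0.283 and 0.184, and in NA1b at 0.157, 0, 0.0469, 0.0310 and 0.0248. Every NA1c value exceeded that of NA1b in the same mouse, and replicate 2 of NA1c overlapped replicate 1 of NA1b. NA3 of replicates 2, 4 and 5 stood at 0.112, 0 and 0.231, and NA2 averaged 0.119 ± 0.167, or 0.157 ± 0.179 without shared barcodes. Chrna7 was 1.54 lower in NA1b than in NA1c (log2 difference -1.54 ± 0.428, SD over 5 mice) and 1.26 ± 1.03 higher in NA1c than in NA2, each in 5 of 5 mice (exact sign-flip p = 0.0625, the smallest possible). These p-values were not adjusted for the many genes and comparisons to which the exact test was applied. No UMI was counted in 64 Ach1 neurons, 62 Ach2 neurons and 37 Glut neurons, where the limits of a count of 0 are 4.69%, 4.84% and 8.11%. These limit neurons with a UMI, not neurons that express the gene, and the medians of 2206.5, 4414.5 and 3285 UMIs per neuron lie where depth matters, since of the neurons of replicates 1 to 5 with 2000 to 5000 UMIs 3.41% had a Chrna7 UMI. Among the neurons of the 3 unmatched mouse names Chrna7 was in 3 of 301 (0.997%), against 67 of 1002 (6.69%) in replicates 1 to 5. For NA1a alone these counts were 2 of 134 (1.49%) at a median of 4750 UMIs per neuron and 25 of 182 (13.7%) at 8181.5. Replicates 1 to 5 were all of batch 2 of the study, and its other 3 samples were of another batch. The part of depth or batch in these counts was not tested.

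**Figure D4:**
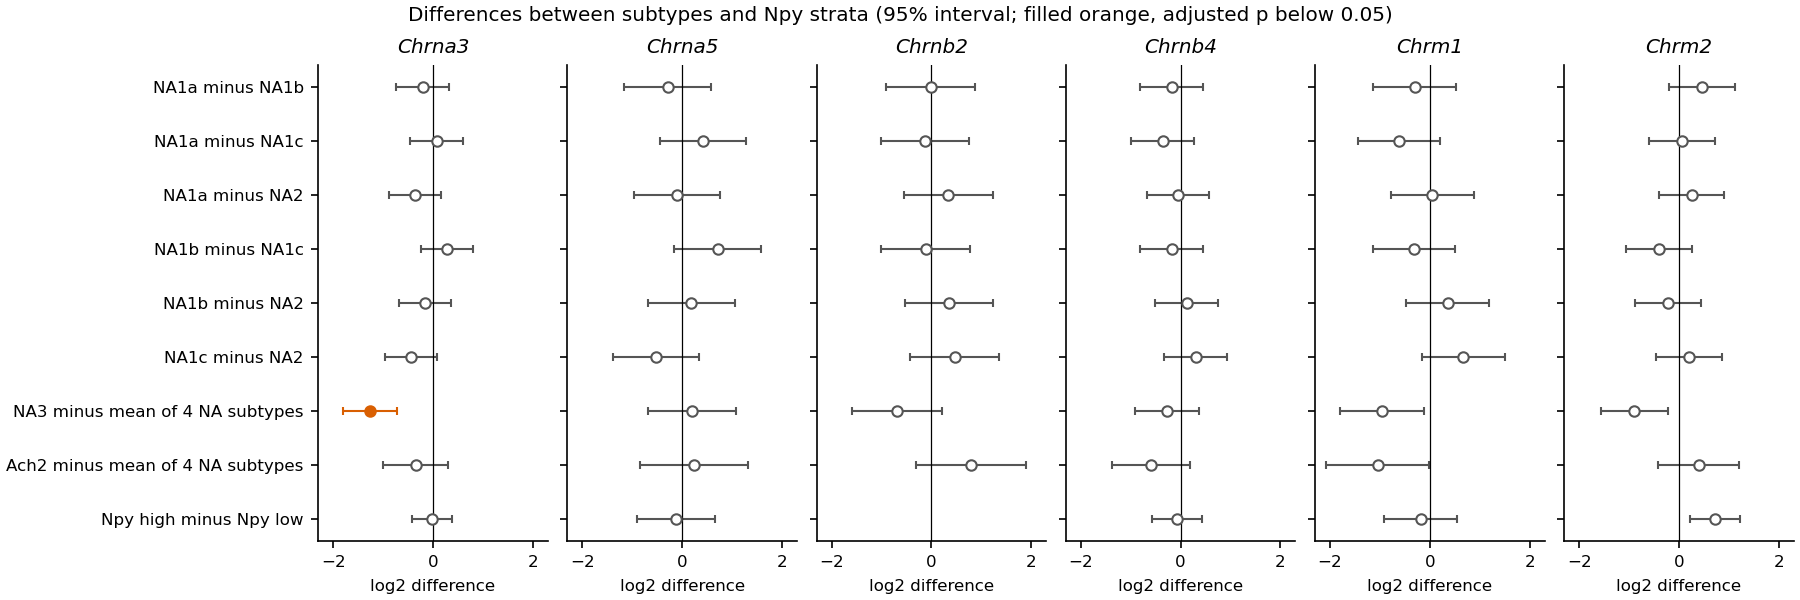
Log2 differences (x) with 95% intervals (bars) of the 6 tested receptor genes in 9 comparisons (rows), filled where the limma adjusted p is below 0.05. Chrnb2 was not tested between the Npy strata and has no point there. The 1 filled point is Chrna3 in NA3, at -1.26.

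The 2 muscarinic receptors were both found in ganglion neurons. Chrm2 had a UMI in 405 neurons (31.1%, 28.6 to 33.7%, 629 UMIs) and Chrm1 in 212 (16.3%), or 17.2 ± 4.91% and 7.10 ± 2.49% at matched depth. Over all neurons of a mouse Chrm2 stood at 0.817, 0.572, 1.28, 0.791 and 0.932 UMIs per 10000. Replicate 3 was highest and replicate 2 lowest, around a mean of 0.878 ± 0.259. Chrm1 was at 0.352, 0.263, 0.298, 0.454 and 0.438, a mean of 0.361 ± 0.0841.

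Chrm2 and Chrm1 were at their lowest mean in NA3 among the noradrenergic subtypes, and neither was called in the fit as reported. Chrm2 was at 0.207, 0.712 and 0.444 UMIs per 10000 in NA3 of replicates 2, 4 and 5, while the means were 1.102 ± 0.428 for NA1a, 0.731 ± 0.132 for NA1b, 1.05 ± 0.344 for NA1c and 1.01 ± 0.622 for NA2 (1.23 ± 0.906 without shared barcodes). The NA3 values overlapped those of NA1a, NA1b, NA1c and NA2. Its log2 difference was -0.89 (SE 0.334, 95% interval -1.57 to -0.22, adjusted p = 0.0616), and 3 of 3 mice were lower. Chrm2 was called with at least 5 neurons per profile (-1.51, adjusted p = 0.00480), with summed UMIs (adjusted p = 0.0138), in the noradrenergic subtypes alone (0.0440), without replicate 1 (0.0318) and without replicate 4 (0.0486). In 13 of the 18 other settings it was not called, with adjusted p up to 0.339. Without the shared barcodes its difference was -0.87 (adjusted p = 0.0994). Chrm1 in NA3 was at 0.160, 0.168 and 0.0898, below all NA1a, NA1b and NA1c values but not below NA2 of replicate 2, which was at 0. Its difference was -0.97 (SE 0.419, 95% interval -1.81 to -0.13, adjusted p = 0.116) and -1.21 (adjusted p = 0.0331) without the shared barcodes. The glial and neuron marker levels given for Chrna3 apply here, and their part in these differences was not tested.

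Chrm1 rested on few molecules in the 4 other noradrenergic subtypes. NA1a averaged 0.288 ± 0.0718 UMIs per 10000, NA1b 0.396 ± 0.170, NA1c 0.511 ± 0.167, and NA2 0.359 ± 0.292, or 0.595 ± 0.285 without shared barcodes. Leaving these out turned the log2 difference of NA1a from NA2 from 0.05 to -0.71, that of NA1b from 0.36 to -0.40 and that of NA1c from 0.67 to -0.09. NA1c was higher than NA1a in 4 of 5 mice (log2 difference of NA1a from NA1c -0.62, adjusted p = 0.462, exact p = 0.125).

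Ach2 was represented by 2 mice, with 13 and 17 neurons, of which 10 and 13 had a barcode of their own. Of the 6 members, 0 were called against the mean of NA1a, NA1b, NA1c and NA2, where 5.74% of all genes were. Chrna3 was at 1.48 and 1.91 UMIs per 10000 in replicates 1 and 4, and at 1.37 and 1.20 without shared barcodes. Chrm2 was at 1.52 and 0.851, and at 0.833 and 0.509 without them, so its log2 difference changed from 0.39 (95% interval -0.43 to 1.21) to -0.31. Chrm1 was at 0.0480 and 0.312, with a difference of -1.04 (95% interval -2.07 to -0.02, adjusted p = 0.249). Without shared barcodes the Chrna5 difference turned from 0.23 (95% interval -0.84 to 1.31) to -0.72, and that of Chrna3 went from -0.34 to -0.77 (adjusted p = 0.152). Chrnb2 stood at 0.80 (-0.30 to 1.90) and at 1.04 without them. Some settings gave a call, for Chrna3 with at least 5 neurons per profile (-1.25, adjusted p = 0.0124), and for Chrnb4 (-2.38, adjusted p = 0.0176) and Chrm1 (-2.56, adjusted p = 0.0485) thinned to 2000 UMIs.

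Ach1 allowed no test, and Glut had no profile of 10 neurons. The 1 Ach1 profile with at least 10 neurons, of replicate 4, held Chrna3 at 2.61, Chrnb4 at 1.38, Chrm1 at 0.560 and Chrm2 at 0.551 UMIs per 10000, beside a satellite glia sum of 118 and a fibroblast sum of 38.7. In the 37 Glut neurons of all mouse names, Chrna3 had a UMI in 28 (75.7%, 58.8 to 88.2%), Chrnb4 and Chrm2 in 11 each (29.7%), Chrna5 in 8, and Chrnb2 and Chrm1 in 6 each. With profiles of at least 5 neurons (2 mice), Chrm2 was lower in Glut than in the 4 noradrenergic subtypes (log2 difference -2.19, 95% interval -3.39 to -0.988, limma adjusted p = 0.00723), where 22.3% of all genes were called. These 2 Glut profiles held 7 neurons each, with 16628 and 52904 UMIs. Of the 17 Glut neurons of replicates 1 to 5, 3 had a shared barcode. Beside the Glut share of 29.7%, the mean share of a mouse's neurons with a Chrm2 UMI was 31.7%. Slc17a6, the vesicular glutamate transporter, was at 0 in all profiles of the 7 other subtypes. Its level in Glut, which had no profile of 10 neurons, is not given here.

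Most neurons held some nicotinic transcript. At the depth as deposited, 71.7 ± 6.39% of the neurons of a mouse had a UMI of at least 1 of the 6 nicotinic genes, 40.2 ± 7.30% of at least 1 muscarinic gene, 32.4 ± 8.27% of both kinds and 20.6 ± 5.89% of neither. Thinned to 2000 UMIs these shares were 48.5 ± 3.71%, 22.1 ± 4.25%, 11.4 ± 2.34% and 40.7 ± 5.57%. Chrna3 and Chrnb4 were counted in the same neuron in 22.5 ± 5.71% of neurons as deposited and 6.22 ± 3.01% when thinned. All 3 clustered subunits were seen together in 5.22 ± 1.67% of neurons as deposited and in 0 of 813 when thinned.

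Joint detection was compared at matched depth in 5 mice, where the exact test cannot go below p = 0.0625 and so cannot pass 0.05. Chrna3 had a UMI in 36.0 ± 9.95% of neurons with Chrnb4 and in 30.9 ± 3.92% of those without, a difference of 5.10 ± 10.9 percentage points, positive in 3 of 5 mice (exact p = 0.375). Chrna3 with and without Chrna5 differed by -4.75 ± 18.6 points. Chrm1 had a UMI in 12.2 ± 5.19% of neurons with Chrm2 and in 5.83 ± 3.01% of those without. That difference was positive in 4 of 5 mice (exact p = 0.125), and so was that of Chrna5 with Chrm2 (exact p = 0.125). Compared within subtypes the Chrm1 difference was 6.39 ± 5.78 points, positive in 5 of 5 mice (exact p = 0.0625), with replicate 2 at 0.07 points. Over the 15 pairs compared, the adjusted exact p was at least 0.781, and at least 0.859 within subtypes.

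The study divided NA1a, NA1b and NA3 neurons by their level of Npy, the co-transmitter neuropeptide Y, at the bottom and top 30% (limits 5.58 and 45.8 UMIs per 10000). Over all mouse names, Npy high neurons were mostly NA1a (194 of 218) and Npy low neurons mostly NA1b (162 of 218), so stratum and subtype cannot be told apart. Chrm2 was at 1.06, 0.460, 1.16, 1.04 and 1.28 UMIs per 10000 in Npy high neurons of replicates 1 to 5 and at 0.431, 0.364, 0.563, 0.691 and 0.728 in Npy low neurons. The Npy high value was the greater in 5 of 5 mice, with replicate 2 of Npy high inside the Npy low range. The log2 difference was 0.72 (SE 0.252, 95% interval 0.21 to 1.23), with a limma adjusted p of 0.0801 and an exact p = 0.0625, and of the 5 members tested 0 were called, where 6.69% of all 7327 genes were. Chrm2 passed the threshold in 2 other settings, with UMIs summed over neurons (0.81, adjusted p = 0.0222) and with the mean of the deposited natural log values (0.31, adjusted p = 0.0257). In 15 of the 17 other settings it did not pass, with adjusted p up to 0.706. With 1 mouse left out its adjusted p ran from 0.0725 to 0.287.

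No other tested receptor gene passed the threshold between the Npy strata. The log2 difference was -0.02 for Chrna3 (95% interval -0.43 to 0.38), -0.07 for Chrnb4 (-0.58 to 0.43), -0.12 for Chrna5 (-0.90 to 0.67) and -0.18 for Chrm1 (-0.91 to 0.54). Chrna7, under the filter, averaged 0.188 ± 0.1202 UMIs per 10000 in Npy high and 0.0610 ± 0.0659 in Npy low neurons, higher in 4 of 5 mice (exact p = 0.125). In this comparison 5 of the 8 tested satellite glia markers were called lower in Npy high neurons, and their part in the receptor differences was not tested.

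**Figure D5:**
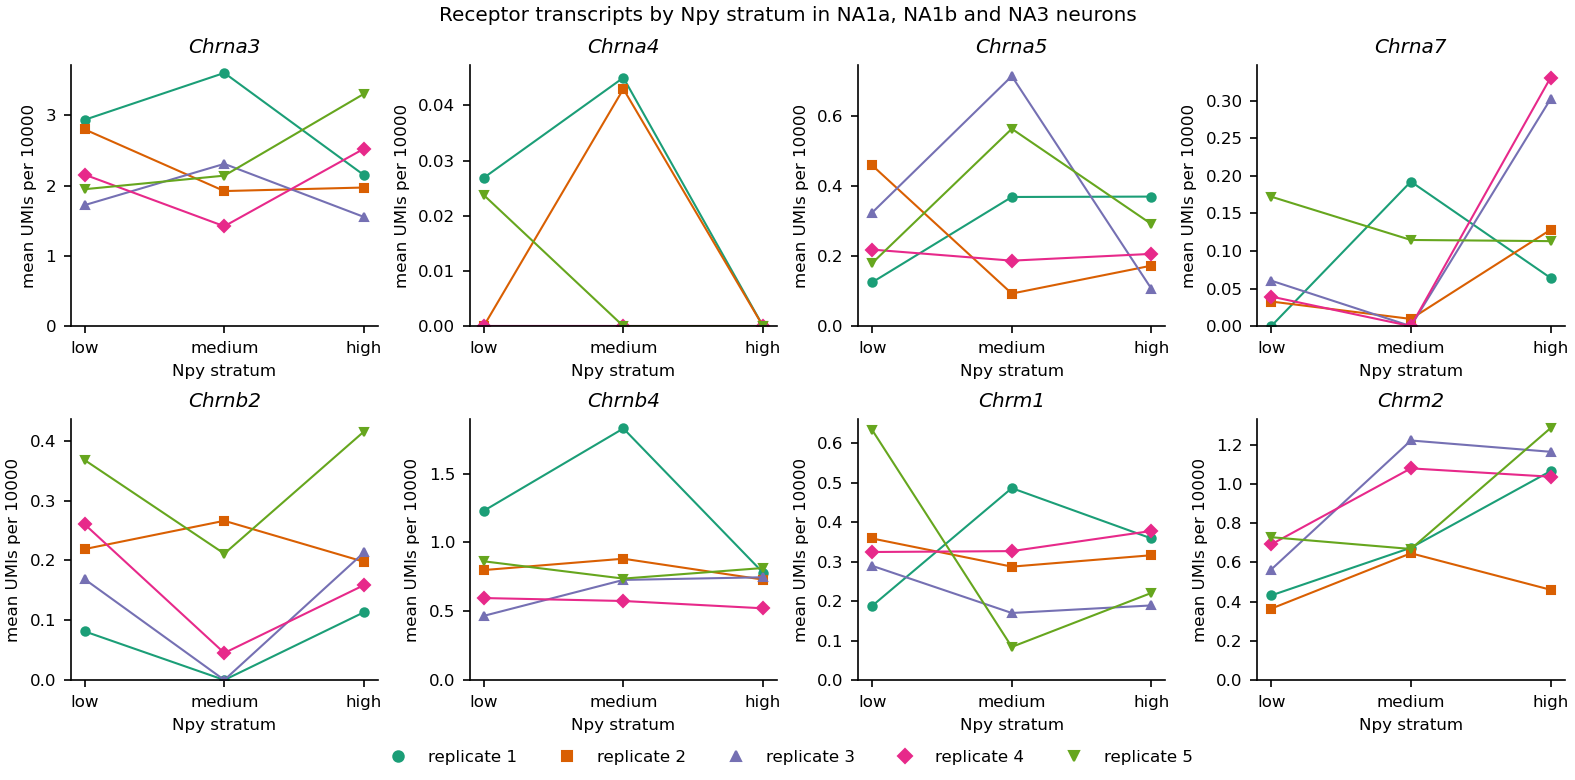
Mean UMIs per 10000 (y, one scale per gene) of the 8 receptor genes in Npy low, medium and high neurons of NA1a, NA1b and NA3 (x), 1 line per mouse. Chrm2 was higher in Npy high than in Npy low neurons in 5 of 5 mice, while the lines of Chrna3 cross.

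Genes that work with these receptors were taken from 3 lists, nicotinic partners (chaperones and proteins that bind the channels), muscarinic signalling and acetylcholine handling. Among the subtypes, 7 of 10 tested partners, 14 of 19 signalling genes and 1 of 1 acetylcholine gene (Ache, which breaks down acetylcholine, adjusted p = 0.0197) were called by the F test, beside 62.3% of all genes. Against NA2, 5, 5 and 6 of 10 partners and 6, 9 and 11 of 19 signalling genes were called for NA1a, NA1b and NA1c in turn, beside the shares of all genes given for these pairs. Without shared barcodes these counts were 4, 4 and 4 of 10 and 7, 7 and 11 of 19, beside 35.0%, 42.7% and 46.7% of all genes. Among the 3 NA1 subtypes 0 of 10 partners and 1 or 2 of 19 signalling genes were called in each pair.

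Among the signalling genes, Gnb1, a G protein β subunit, was higher in NA2, at 7.12 ± 0.779 in NA2 against 2.22 ± 0.585 to 2.80 ± 0.901 in the NA1 subtypes. Itpr1, the inositol trisphosphate receptor, and Prkca, protein kinase C α, were lower in NA2, by 0.99 to 2.51 and 2.05 to 2.40 on the log2 scale. Without shared barcodes all 3 genes were still called against each NA1 subtype. Plcb4, a phospholipase C chosen after its values were seen, was higher in NA1a than in NA1b (1.05, adjusted p = 0.0222) and in Npy high than in Npy low neurons (1.18, adjusted p = 3.14e-06).

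Among the partners, Apc, a scaffold, averaged 1.48 ± 0.283 UMIs per 10000 in NA1a and 0.744 ± 0.690 in NA2. Ywhah, a 14-3-3 protein, was higher in NA2 at 17.1 ± 4.76 against 7.45 ± 0.341 in NA1a. Rer1, which retains unassembled subunits in the early secretory pathway, stood at 1.33 ± 0.408 in NA2 against 0.518 ± 0.157 in NA1a. Without shared barcodes Apc and Ywhah were still called against each NA1 subtype, while Rer1 lost its 3 calls (log2 differences from -0.25 to -0.82, adjusted p from 0.0818 to 0.654). In NA3 1 of 10 partners was higher and 4 were lower, beside 6.60% and 8.58% of all genes. The higher one was Rer1 (1.36, adjusted p = 0.00194). The lower ones included, named after their values were seen, the nicotinic chaperones Tmem35a (-1.39, adjusted p = 0.0128) and Ric3 (-1.18, adjusted p = 0.0357, and 0.0770 without shared barcodes). In Ach2 Tmem35a was also lower (-1.97, adjusted p = 0.00888). Of the 19 signalling genes 1 was higher and 3 were lower in NA3, among them the M-current subunits Kcnq3 (-0.89, adjusted p = 0.00440) and Kcnq5 (-1.25, adjusted p = 0.0107). The satellite glia and neuron marker levels of NA3 given for Chrna3 apply to these genes too, and their part was not tested.

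The virally labelled neurons were few. GFP, carried back from the heart, was counted in 6 neurons with a median of 5835.5 UMIs, and tdTomato, from the paws, in 20 neurons with a median of 2699.5, with 1 neuron in both counts. Chrna3 had a UMI in 4 of 6 GFP neurons and in 11 of 20 tdTomato neurons (55.0%, 31.5 to 76.9%), beside a share of 56.4% in 940 unlabelled NA1a, NA1b, NA1c and NA3 neurons. Chrm2 and Chrm1 each had a UMI in 3 of 6 GFP neurons and in 0 of 20 tdTomato neurons, where the limit of a count of 0 is 15% and the exact 95% interval ends at 16.8%. In replicates 1 to 5, 19.3% of neurons with 2000 to 5000 UMIs had a Chrm2 UMI and 9.76% a Chrm1 UMI. In the unlabelled neurons, at a median of 4312 UMIs, these shares were 32.9% and 17.1%. No test was made on the labelled neurons, and the part of depth in these counts was not tested.

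Few UMIs of other acetylcholine receptor genes were counted. Chrna1 had a UMI in 6 of 1303 neurons, Chrnb1 in 5, and Chrng and Chrm4 in 1 each. Chrna10, Chrne and Chrm3 had none, and the limit of a count of 0 for neurons with a UMI is 0.230%, which does not limit the neurons that express the gene. Further subunits and Chrm5 were not analysed here.

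Genes whose log2 level was among the most like that of Chrna3 over the 25 profiles were Ttl (Pearson r = 0.74), B4galnt1 (0.73), Reep1 (0.72) and Ube2q2 (0.72), out of 7228 genes. Among the members, Chrm2 ranked 495 (0.41), Chrm1 649 (0.36), Chrnb4 938 (0.31), Chrnb2 2465 (0.11) and Chrna5 4266 (-0.06). These are descriptions over profiles that share mice and depth, with NA3 low in Chrna3.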

How the data were processed

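Dissociated cells of the stellate ganglia of C57BL/6J mice were captured with the 10x Chromium system, and per the labels the authors aligned reads to the mouse genome (mm10) with Cell Ranger 2.1.1 and used Seurat and Scanpy. The authors' limits were 500 to 6000 genes, at most 20000 UMIs and at most 15% mitochondrial UMIs per cell, and all 1303 deposited neurons lie within them. Removal of doublets is not given in the sources used here. The deposited values are the natural log (ln) of 1 plus UMIs per 10000 UMIs of the neuron. The smallest step of each neuron gave its UMIs back, with 100% of the values above 0 within 0.01 of a whole number, and 88.0% of all values were 0.

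UMIs per 10000 were averaged over the neurons of each mouse and subtype with at least 10 neurons. These profiles were tested on log2(mean + 0.1) with limma 3.58.1 in R 4.3.3, with an intensity trend, a block for the mouse, and p-values adjusted by Benjamini and Hochberg's method over all genes with a mean of at least 0.2 UMIs per 10000 (threshold 0.05). The subtype fit held 25 profiles of 5 mice and the Npy fit 15 profiles. The block was kept since the labels give profiles of the same number as the same animal. Whether each library held the cells of that animal alone was not tested. The mean correlation of residuals was 0.0591 within a mouse (range -0.0605 to 0.196 over 51 pairs) and -0.0611 between mice in the subtype fit, and 0.135 (0.0308 to 0.284 over 15 pairs) and -0.104 in the Npy fit. Single genes were also compared over mice with the exact 2-sided sign-flip permutation test, whose smallest p is 0.0625 for 5 mice and 0.25 for 3 mice. Its p-values for single genes were not adjusted for the number of genes and comparisons. Neurons were thinned to 2000 UMIs where shares were compared across depths. The code was tested on simulated data.

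Of the 8 mouse names in the metadata, 5 match 1 sample each (replicates 1 to 5), and the 301 neurons of the other 3 names are given only as pooled values. The metadata's subtype names were used as given. The text names the 8 receptor genes, up to 4 genes with the smallest p of the test among all subtypes in each related list, and the 5 genes most like Chrna3. Some genes that this rule takes are not reported here. Other named genes were chosen after their values were seen. The receptor genes, the gene lists and the tests were chosen with earlier results of these data known. Intervals and limits of a count of 0 cover counting error only.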

Additional observations from a re-analysis of the deposited data

Results flagged for a closer look

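Of 64 groups of 5 mice examined for a single mouse that stood far from the others, 6 had one. For normally distributed values chance gives about 1 in 20. The rule always flags a group in which 1 mouse alone is above 0, so that rate does not hold for sparse genes. Chrna4 was above 0 in 1 mouse only in NA1a (replicate 1, 0.0349 UMIs per 10000), NA1c (replicate 5, 0.0243) and NA2 (replicate 5, 0.0343), each on 1 or 2 UMIs. Chrnb2 stood apart in NA1c of replicate 3 (0.594), which held 3 UMIs. Chrnb4 stood high in the Npy medium stratum of replicate 1 (1.83) and low in the Npy high stratum of replicate 4 (0.521).

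The 301 neurons of the 3 mouse names that match no single sample entered no comparison, and 7 of the receptor genes were above the limit of a count of 0 there. Summed over these neurons the levels were 2.60 UMIs per 10000 for Chrna3, 0.671 for Chrnb4, 0.244 for Chrna5, 0.128 for Chrnb2, 0.0427 for Chrna4, 0.854 for Chrm2 and 0.348 for Chrm1.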

How the results depend on the processing

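The 59 tests of the receptor genes were repeated under 18 alternatives, which gave 970 values. Of these, 852 kept their direction and side of the threshold, 4 lost a call, 24 gained one, 0 called values changed sign, and 90 changed sign with neither value called. The lost calls were those of Chrna3 without replicate 4 and with at least 20 neurons per profile (NA3 difference -0.81, adjusted p = 0.0900, adjusted p of the F test 0.152). Chrm2 gained a call in NA3 with summed UMIs (-1.003), at least 5 neurons per profile (-1.51) and the noradrenergic subtypes alone (-0.94), and in Npy high neurons with the mean of ln values (0.31) and with summed UMIs (0.81). With 1 mouse left out, Chrna3 in NA3 ran from -1.49 to -0.92, Chrm2 in NA3 from -1.23 to -0.72 (called without replicate 1 and without replicate 4), and Chrm2 between Npy strata from 0.62 to 0.83. The adjusted p of Chrm2 then ran from 0.0318 to 0.307 in NA3 and from 0.0725 to 0.287 between Npy strata. With at least 5 neurons per profile Chrna3 was lower in Ach2 (-1.25, adjusted p = 0.0124). Thinned to 2000 UMIs, Chrnb4 (-2.38) and Chrm1 (-2.56) were lower in Ach2.

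Counts of genes called moved with depth and the number of neurons. Thinned to 2000 UMIs they were 2875 among subtypes (4505 as reported), 3003 in at least 1 of the 6 pairs (4624), 222 for Ach2 (415) and 165 for Npy (490). Without a filter they were 1804 for NA3 (1097) and 279 for Npy. Ach2 gave 1582 with at least 5 neurons per profile and 116 with profiles weighted by neurons. Without the mouse as a block, the pairing of profiles by animal, the Npy count was 250, and no receptor gene's call changed. With 1 mouse left out the counts were 3892 to 4168 among subtypes, 4179 to 4395 in the pairs, 629 to 1159 for NA3 (629 without replicate 4), 333 to 517 for Ach2 and 287 to 418 for Npy (287 without replicate 1, 319 without replicate 2).

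Shares of neurons with a UMI fell when thinned to 2000 UMIs and when at least 2 UMIs were asked for: Chrna3 32.1% and 28.5%, Chrnb4 16.3% and 10.1%, Chrna5 4.34% and 1.41%, Chrnb2 4.02% and 1.00%, Chrna7 2.55% and 1.01%, Chrm1 7.10% and 3.08%, and Chrm2 17.2% and 11.3%. Leaving out 1 mouse gave Chrna3 53.8 to 56.4%, Chrnb4 31.1 to 34.6% and Chrm2 29.5 to 34.5%. The alternative with every mouse name as 1 mouse was not run, since 3 names match no single sample. Ach2 had no profile of 20 neurons and so gave no value at that setting.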
